A study of Mus musculus with 6 samples.

Results

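The genes described here are 10 members of the BCL-2 family, the proteins that set the threshold for mitochondrial cell death. They were chosen by symbol (Bcl2, Bcl2l1, Mcl1, Bcl2a1b, Bcl2l11, Bbc3, Pmaip1, Bid, Bax and Bak1), and all 10 were found among the 16244 genes of the deposited RNA-seq table. The table compares pathogenic Th17 cells of wild-type (WT) mice with those of RORγtN275D (N275D) knock-in mice, with 3 libraries for each genotype. RORγt is the nuclear receptor that directs the Th17 program, and the knock-in allele was made by CRISPR-Cas9 on a C57BL/6 background. Naive CD4+ T cells from spleen were activated through CD3 and CD28 and cultured for 3 days, with IL-6, IL-1β and IL-23 named in the series' description and with TGF-β and antibodies to IL-4 and IFN-γ added in the methods, so both genotypes share this stimulation. In the methods the WT C57BL/6 mice were purchased and the knock-in mice came from another laboratory, and littermates are mentioned for transfer experiments, so for these libraries genotype and source of the mice cannot be told apart. The methods describe young adult mice of both sexes for the study in general and both homozygous and heterozygous knock-in donors. The age, sex and zygosity of the donors of these libraries, and whether the libraries came from separate mice or cultures, were not given in the sources used here. The p-values below therefore measure the spread between these libraries, which may be technical.

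In the mitochondrial pathway, the effectors BAX and BAK form pores in the outer membrane and release cytochrome c, which activates caspases. The pro-survival proteins BCL-2, BCL-XL (Bcl2l1), MCL-1 and A1 (Bcl2a1b) hold the effectors in check. The BH3-only proteins BIM (Bcl2l11), PUMA (Bbc3), NOXA (Pmaip1) and BID bind the pro-survival proteins or engage the effectors directly. In T cells, cytokines that signal through the common γ chain maintain the pro-survival genes, BIM removes activated cells when cytokine is withdrawn, and RORγt is known in thymocytes for sustaining Bcl2l1.

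Reads on genes ranged from 17659035 to 18510878 per library. Values are normalized reads, the authors' reads per gene multiplied by a single factor per library. The median chi-square between 2 replicates, a squared measure, was 1.32 to 3.05 times what counting alone gives. WT replicate 3 stood farthest from its group. Among the 3 WT libraries, WT replicate 3 held the highest value of 5 members and the lowest value of 4 others, which is 9 of 10. With only 3 libraries any one of them is often at an end, and the share over all genes was not counted. T cell and Th17 markers were abundant in both genotypes (summed normalized reads of 9 markers, 76847 to 80762 in WT and 88784 to 89364 in N275D). Markers of B cells summed to 1131 to 1170 in WT and 1710 to 1782 in N275D, with 5 of 6 tested markers higher and most of the sum from Ebf1, while Ms4a1 was at or under 1.01 normalized reads in WT and at most 9.88 in N275D. CD8 T and natural killer markers summed to 182 to 195 in WT and 251 to 281 in N275D. Of these, Cd8b1 (means 98.9 in WT and 148 in N275D) and Eomes (56.4 and 91.7) were called higher. Cd8a (32.6 and 27.6) was not called, Klrb1c (1.01 and 0) was below the filter, and Ncr1 and Klra8 were not listed. Myeloid markers summed to 84.8 to 97.2 in WT and 89.9 to 117 in N275D. The myeloid markers moved in opposite directions: Adgre1 fell from 22.6 to 6.64 normalized reads (limma adjusted p = 0.000512), Lyz2 (4.66 and 7.97) and Fcer1g (3.32 and 7.97), below the filter, were higher without overlap, and S100a9 and Tyrobp were at 0 in every WT library. The part of these differences in the results below was not tested.

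All 10 members passed the filter of a mean of at least 10 normalized reads. At an adjusted p under 0.05, with limma and Benjamini-Hochberg adjustment over all 11908 genes tested, 8 of 10 members (80%) changed, 4 of them higher and 4 lower in N275D, where 50.9% of all genes tested were called. The share of all genes called was 24.7% in the higher direction and 26.1% in the lower direction. The libraries of the genotypes did not overlap for 8 members (80%), and they did not overlap for 57.7% of all genes tested. No member changed by 2-fold or more, a size that 3.59% of all genes reached with a call. The median absolute log2 difference was 0.27 over the members and 0.19 over all genes tested. Pmaip1 moved farthest among the members, and 12.9% of all genes tested moved farther. In bulk RNA a change in the share of cells that express a gene and a change in RNA per cell cannot be told apart.

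**Figure D1:**
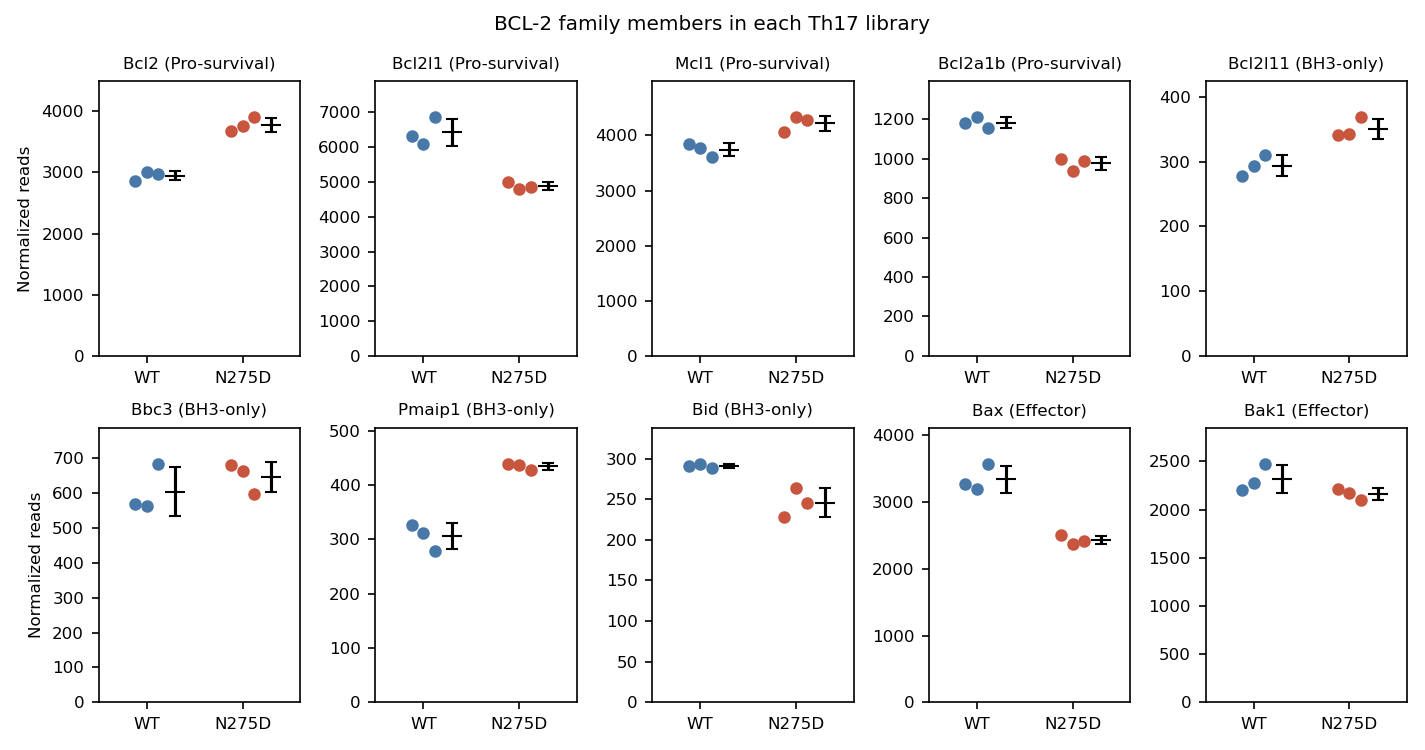
Normalized reads of each of the 10 members (vertical axis from 0) in the 3 WT and 3 N275D libraries, with 1 point per library and the mean ± SD beside the points. The genotypes are separated for 8 members and overlap for Bbc3 and Bak1.

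The promoters of the members were read for short motifs because the study concerns RORγt together with HIF-1α. RefSeq (GRCm38.p6) listed 14 promoters for 9 members, and the entry for Pmaip1 was missing. The 250 bases before each start were searched on both strands for ACGTG and GCGTG, the core of the hypoxia response element, for AGGTCA, the core of the ROR element, and for TTCNNNGAA, the core bound by STAT factors. ACGTG or GCGTG was found in 5 of 9 members (55.6%), namely Bax, Bbc3, Bcl2a1b, Bcl2l1 and Bcl2l11, and in 41.5% of all 27025 genes with listed promoters. A gene was counted if any of its promoters matched. The 9 members had 14 promoters and the 27025 genes had 32851, so the members had more windows per gene in which to match. The 5 members with a match include 3 that were lower in N275D, 1 that was higher and 1 that was not called. ACGTG was found in 2 members and in 18.5% of all genes, and GCGTG in 4 members and in 30.9% of all genes, with both in Bbc3. AGGTCA occurred in 1 member, Bcl2l1, starting 104 bases before one of its listed starts, and in 15.8% of all genes. TTCNNNGAA was in none of the 9 members and in 8.13% of all genes, which says only that these letters were not in the windows. Windows of 3 members are shown, 5′ to 3′ on the strand of the gene, for a pro-survival gene that rose and for an effector and a pro-survival gene that fell, with the matches to ACGTG or GCGTG on either strand in capitals.
Bcl2 (chr1:106714291-106714540, minus strand): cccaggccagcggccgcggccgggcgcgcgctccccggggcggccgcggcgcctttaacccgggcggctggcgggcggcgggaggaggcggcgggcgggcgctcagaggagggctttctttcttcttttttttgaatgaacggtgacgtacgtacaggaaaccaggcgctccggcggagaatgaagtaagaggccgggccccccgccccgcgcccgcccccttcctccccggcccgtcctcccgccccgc
Bax (chr7:45466899-45467148, minus strand): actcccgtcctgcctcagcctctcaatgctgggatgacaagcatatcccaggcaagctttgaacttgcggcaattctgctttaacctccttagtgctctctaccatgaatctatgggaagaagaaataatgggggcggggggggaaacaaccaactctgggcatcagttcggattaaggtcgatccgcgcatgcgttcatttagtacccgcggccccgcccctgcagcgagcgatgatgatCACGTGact
Bcl2a1b (chr9:89199023-89199272, plus strand): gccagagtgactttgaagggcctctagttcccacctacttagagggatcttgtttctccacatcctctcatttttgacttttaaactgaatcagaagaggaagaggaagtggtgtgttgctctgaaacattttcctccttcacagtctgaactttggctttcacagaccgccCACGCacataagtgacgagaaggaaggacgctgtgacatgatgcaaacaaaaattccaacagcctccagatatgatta
The Bcl2 window held neither core. The Bax window held the palindrome CACGTG starting 9 bases before the start, which is read as ACGTG once on each strand, so its 2 matches overlap. The Bcl2a1b window held GCGTG once on the reverse strand, starting 78 bases before the start. A match describes the letters and is not a measured binding site.

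Among the pro-survival members, Bcl2 and Mcl1 rose in N275D cells while Bcl2l1 and Bcl2a1b fell. Bcl2, the founding member of the family, lies at chr1:106538178-106714274 on the minus strand (GRCm38, GENCODE M21). It was measured at 2863, 3003 and 2974 normalized reads in WT and at 3679, 3755 and 3901 in N275D. Every N275D library lay above every WT library. The mean was 28.2% higher (2947 ± 73.7 against 3778 ± 112.9, SD, n = 3 each), a log2 difference of 0.36 (SE 0.039, limma adjusted p = 1.65e-06).

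Bcl2l1 (chr2:152780668-152831728, minus strand), the gene of BCL-XL, had normalized reads of 6325, 6101 and 6857 in WT and of 5007, 4790 and 4842 in N275D. The lowest WT library was above the highest N275D library. The mean was 24.1% lower (6428 ± 388.4 against 4880 ± 112.9), a log2 difference of -0.40 (SE 0.043, limma adjusted p = 1.36e-06). Without WT replicate 3, the highest of the WT values, the log2 difference was -0.35. Gene totals do not separate the long and the short splice forms of Bcl2l1, which act in opposite directions.

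Mcl1 (chr3:95658788-95663176, plus strand), whose short-lived protein T cells depend on for survival, showed a smaller rise. Its WT libraries held 3842, 3771 and 3610 normalized reads and its N275D libraries 4065, 4328 and 4271. The genotypes did not overlap. The mean was 12.9% higher (3741 ± 118.7 against 4221 ± 138.3), a log2 difference of 0.17 (SE 0.040, limma adjusted p = 0.00171).

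Bcl2a1b (chr9:89199209-89207827, plus strand) is one of the mouse copies of A1, a pro-survival gene that NF-κB induces in activated lymphocytes. It was measured at 1181, 1210 and 1157 normalized reads in WT and at 999.3, 938 and 989.6 in N275D. All N275D values lay below all WT values. The mean was 17.5% lower (1183 ± 26.2 against 975.6 ± 32.9), a log2 difference of -0.28 (SE 0.048, limma adjusted p = 0.00017). The copy cannot be measured with certainty on its own, because the annotated transcripts of Bcl2a1b and Bcl2a1d were identical at 810 of 817 aligned bases and 56.8% of the 100-base windows of Bcl2a1b recurred in other annotated genes. The sum of Bcl2a1a, Bcl2a1b, Bcl2a1c and Bcl2a1d, which does not depend on how counted reads were divided among these 4, was 3001, 2949 and 2807 in WT and 2446, 2358 and 2333 in N275D. It can still depend on whether reads that match several copies were counted, which was not given in the sources used here. The sum of the 4 copies was 18.5% lower in N275D without overlap, with an exact two-sided permutation p of 0.1, the smallest that 3 against 3 libraries allow. The share of the sum given to Bcl2a1b was 40.5% ± 1.02 in WT and 41.0% ± 1.32 in N275D, a difference within the spread of the libraries. Bcl2a1b also shares sequence with Gm29094, an annotated gene that overlaps up to 647 of its 817 exon bases on the same strand. Gm29094 was not listed under this symbol among the deposited genes, so the sum leaves out any reads assigned to it.

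Of the 4 BH3-only members, Bcl2l11 and Pmaip1 rose, Bid fell and Bbc3 was not called. Bcl2l11 (chr2:128126038-128162547, plus strand) encodes BIM, which binds every pro-survival member of the family. The WT libraries held 277.6, 293.5 and 309.4 normalized reads and the N275D libraries 340.4, 342.1 and 368.4. The genotypes did not overlap, and the mean was 19.3% higher (293.5 ± 15.9 against 350.3 ± 15.7). The log2 difference was 0.25 (SE 0.072, limma adjusted p = 0.00723).

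Pmaip1, on chromosome 18, encodes NOXA, which binds MCL-1 and A1 and is a target of p53 and of the stress factor ATF4. It was measured at 327, 312.7 and 279 normalized reads in WT and at 439.3, 436.4 and 427.6 in N275D. The N275D libraries were close to each other and lay above all WT libraries. The mean was 41.9% higher (306.2 ± 24.7 against 434.4 ± 6.06), a log2 difference of 0.51 (SE 0.071, limma adjusted p = 2.29e-05).

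Bid (chr6:120891930-120916853, minus strand), which caspase-8 cleaves to link death receptors to mitochondria, was measured at 290.7, 293.5 and 287.8 normalized reads in WT and at 227.6, 263.8 and 245.9 in N275D. The WT values were nearly equal and all lay above the N275D values. The mean was 15.4% lower (290.7 ± 2.87 against 245.8 ± 18.1), a log2 difference of -0.24 (SE 0.076, limma adjusted p = 0.014). The call rested on N275D replicate 1, the lowest library: without it the log2 difference was -0.19 (limma adjusted p = 0.0799), and DESeq2 on the recovered reads did not call the gene with all libraries (adjusted p = 0.0689). Over all alternatives the adjusted p of Bid lay between 0.00358 and 0.0799. The 3′ end of Bid overlaps Bcl2l13 on the opposite strand, which was measured at 1577 normalized reads in WT and 1608 in N275D, and whether strand was used in counting was not given in the sources used here.

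Bbc3 (chr7:16308393-16318205, plus strand) encodes PUMA, a p53 target that binds all pro-survival proteins. It was measured at 566.2, 560.9 and 682.7 normalized reads in WT and at 677.9, 662.1 and 596.5 in N275D. The genotypes overlapped because WT replicate 3 was higher than every N275D library. The log2 difference was 0.10 (95% interval -0.06 to 0.26, limma adjusted p = 0.277). Without WT replicate 3 it was 0.19 and was called (limma adjusted p = 0.00917), in a range of adjusted p from 0.00917 to 0.623 over the alternatives.

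Of the effectors, which form the pores, Bax fell and Bak1 was not called. Bax (chr7:45461697-45466898, minus strand) was measured at 3265, 3191 and 3574 normalized reads in WT and at 2505, 2380 and 2420 in N275D. The lowest WT library was well above the highest N275D library. The mean was 27.2% lower (3343 ± 203 against 2435 ± 63.9), a log2 difference of -0.46 (SE 0.046, limma adjusted p = 6.19e-07). Without WT replicate 3 the difference was -0.41. Part of Bax (9.49% of its 100-base windows) is shared with Gm45808, an annotated gene that overlaps it on the same strand and was not listed under this symbol among the deposited genes.

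Bak1 (chr17:27019810-27029009, minus strand) was measured at 2198, 2272 and 2475 normalized reads in WT and at 2218, 2172 and 2100 in N275D. The highest N275D library lay above the lowest WT library. The log2 difference was -0.10 (95% interval -0.20 to 0.00, limma adjusted p = 0.102), so that a fall of the size measured for Bax lay outside the interval for Bak1. Without WT replicate 1, the lowest WT library, Bak1 was called at -0.13 (limma adjusted p = 0.0454), the lowest of adjusted p-values that reached 0.506 under other alternatives. Bak1 lies within the span of Ggnbp1 on the opposite strand, which was measured at 19.4 normalized reads in WT and 26.9 in N275D.

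**Figure D2:**
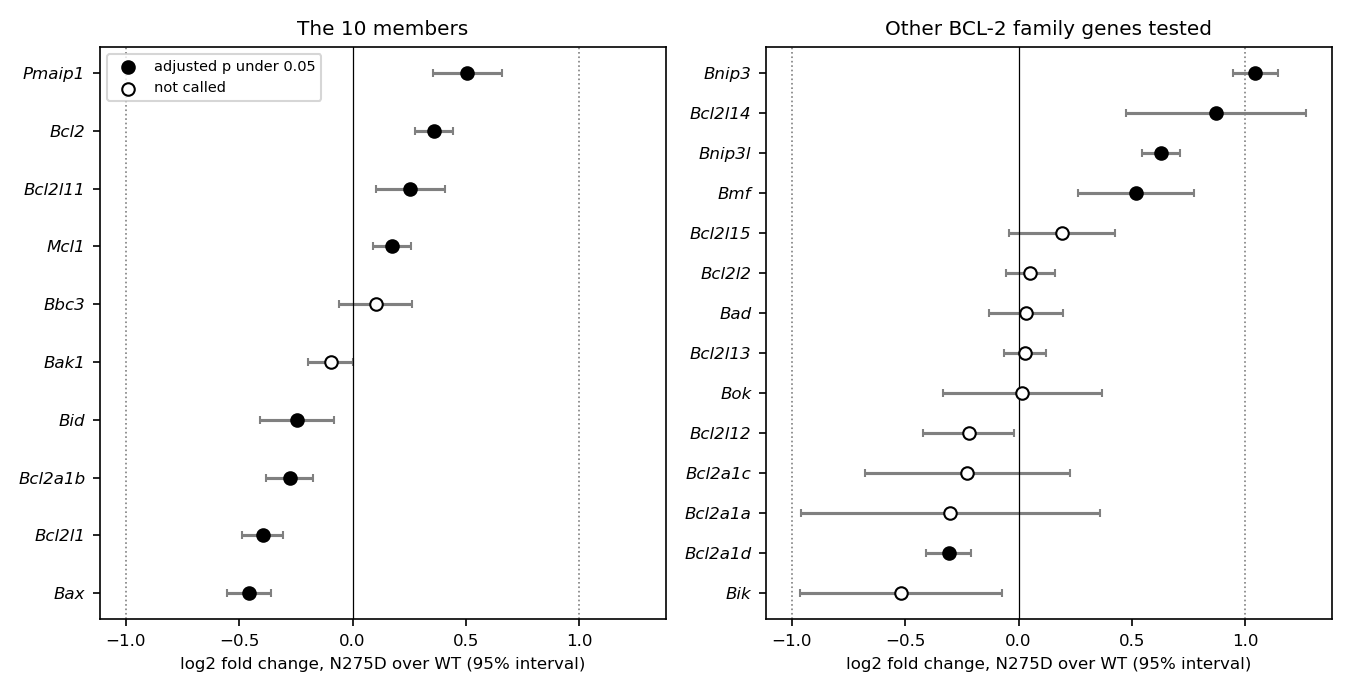
Log2 fold change of N275D over WT with its 95% interval for the 10 members (left) and the 14 other BCL-2 family genes tested (right), with filled points for an adjusted p under 0.05 and dotted lines at a 2-fold change. Members range from -0.46 for Bax to 0.51 for Pmaip1, all inside the 2-fold lines, while Bnip3 at 1.04 lies outside them.

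Levels of different members were set side by side per length, as normalized reads per kilobase of annotated exon. Bax had the highest level in WT (2121 ± 129), followed by Bcl2a1b (1447 ± 32.1), Bcl2l1 (1402 ± 84.7), Mcl1 (1094 ± 34.7) and Bak1 (962 ± 59.6). Bcl2 (322 ± 8.05) and Bbc3 (284 ± 32.4) formed a middle pair. The lowest levels were those of Pmaip1 (112 ± 9.03), Bid (81.9 ± 0.808) and Bcl2l11 (36.6 ± 1.98). Bcl2a1b and Bcl2l1 overlapped across the WT libraries, as did Bcl2 and Bbc3, so that the order within these pairs was not resolved. In N275D, Mcl1 (1235 ± 40.5) moved from the 4th to the 2nd place behind Bax (1545 ± 40.6), ahead of Bcl2a1b (1194 ± 40.3) and Bcl2l1 (1064 ± 24.6), and overlapped with Bcl2a1b. This move depends on the length used: per kilobase of the longest annotated transcript, a length tried after seeing the data, Bcl2l1 stayed 2nd in N275D (1900 ± 44.0) and Mcl1 (1235 ± 40.5) moved from 4th to 3rd. By union exon length the order of the other 6 members, from Bak1 down to Bcl2l11 in place 5 to 10, was as in WT. The places given to Bcl2a1b are those of a single copy of A1. Its near-identical copy Bcl2a1d, which had more normalized reads in both genotypes, is not a member and was not ranked.

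**Figure D3:**
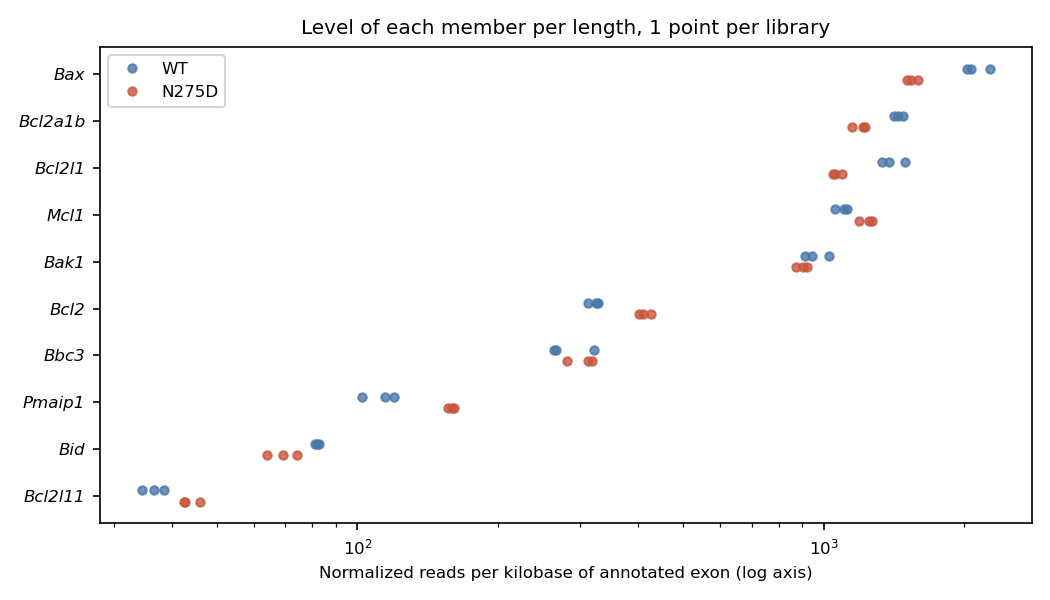
Normalized reads per kilobase of annotated exon (horizontal log axis) for each member, with 1 point per library in WT (blue) and N275D (red). Bax is highest in both genotypes, the mean of Mcl1 is above those of Bcl2a1b and Bcl2l1 in N275D by this length (below Bcl2l1 by the longest transcript), and Bcl2l11 is lowest in both.

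Summed per kilobase by role, the 4 pro-survival members stood at 4265 ± 25.5 in WT and 3906 ± 36.9 in N275D, which is 8.43% lower. The 4 BH3-only members stood at 515 ± 24.9 in WT and 576 ± 20.2 in N275D, which is 11.9% higher. The effectors stood at 3083 ± 184 in WT and 2444 ± 58.4 in N275D, which is 20.7% lower. These sums describe RNA levels and were not tested. Within the pro-survival sum, the share of Bcl2 was 7.55% in WT and 10.6% in N275D, and that of Mcl1 was 25.7% in WT and 31.6% in N275D. The share of Bcl2l1 was 32.9% in WT and 27.2% in N275D, and that of Bcl2a1b was 33.9% in WT and 30.6% in N275D. The pro-survival sum leaves out the near-identical copy Bcl2a1d, which is not a member (1686 ± 72.7 normalized reads in WT and 1361 ± 46.7 in N275D). The shares therefore describe Bcl2a1b alone and not A1 as a whole, and all of them depend on this choice. By the longest transcript Bcl2l1 held more of the sum, 45.9% in WT and 39.1% in N275D, and Mcl1 less, 20.1% in WT and 25.4% in N275D, while the direction of each of the 4 differences was the same. The sums by role were then 11.0% lower, 10.1% higher and 22.2% lower in the same order.

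Ratios of members within a library do not depend on how that library was scaled. The log2 ratios of 6 pairs are given as a description, since each is the difference of log2 values already reported for its members, the pairs were chosen with results known, and an exact permutation test of 3 against 3 libraries cannot give a two-sided p under 0.1. Bcl2l1 over Bcl2 was 1.14, 1.02 and 1.20 in the WT libraries and 0.44, 0.35 and 0.31 in the N275D libraries. The genotypes did not overlap, and the ratio was 40.7% lower in N275D, as follows from a member that fell over one that rose. Bcl2a1b over Pmaip1, a pro-survival protein and its BH3-only partner, was 1.85, 1.95 and 2.05 in WT and 1.18, 1.10 and 1.21 in N275D, a ratio 41.9% lower without overlap. Mcl1 over Pmaip1 was 3.61 ± 0.0718 in WT and 3.28 ± 0.0608 in N275D, which is 20.5% lower. Bax over Bak1 was 0.57, 0.49 and 0.53 in WT and 0.18, 0.13 and 0.20 in N275D, which is 22.1% lower. In these 4 pairs the libraries of the genotypes did not overlap. The ratios to Bcl2l11 moved least: Bcl2 over Bcl2l11 was 3.32 ± 0.0554 in WT and 3.43 ± 0.0258 in N275D, also without overlap. Mcl1 over Bcl2l11 was 3.67 ± 0.123 in WT and 3.59 ± 0.0638 in N275D, and the genotypes overlapped.

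**Figure D4:**
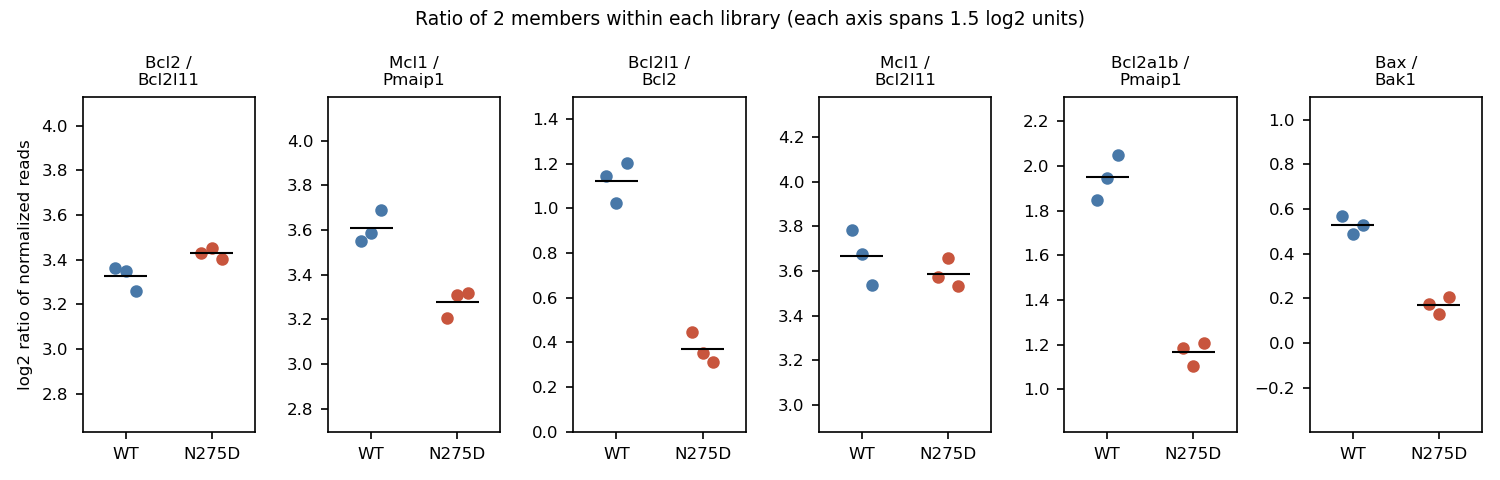
Log2 ratio of normalized reads of 2 members within each library (vertical axes, each spanning 1.5 log2 units), with 1 point per library and a line at the mean of each genotype. Bcl2l1 over Bcl2 and Bcl2a1b over Pmaip1 show the widest separation, while Mcl1 over Bcl2l11 overlaps.

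Of 16 further genes of the BCL-2 family, 14 were tested and 5 (35.7%) were called, 4 higher and 1 lower, beside 50.9% called over all genes tested, with a median log2 difference of 0.03 beside 0.00 over all genes tested. Among the calls were the mitophagy receptors of the family. Bnip3 was measured at 1448, 1581 and 1475 normalized reads in WT and at 3234, 3017 and 3041 in N275D (log2 difference 1.04, limma adjusted p = 3.19e-11), and Bnip3l rose from 2767 ± 90.6 to 4279 ± 87.8 (0.63, limma adjusted p = 2.06e-09). Their values were higher than those of every WT library in all N275D libraries. Bcl2l14 rose from 28.3 ± 1.87 to 53.5 ± 11.9 (0.87, limma adjusted p = 0.00109), and Bmf, a BH3-only gene that like BIM responds to cytokine withdrawal, rose from 86.0 ± 0.708 to 124.5 ± 18.0 (0.52, limma adjusted p = 0.00199). The call that fell was Bcl2a1d, the near-identical copy of Bcl2a1b (-0.31, limma adjusted p = 5.55e-05). Not called were the pro-survival gene Bcl2l2 (846 ± 18.8 and 877 ± 29.6 normalized reads), the BH3-only gene Bad (289 ± 26.0 and 296 ± 6.67) and the effector relative Bok (43.4 to 50.5 in WT and 38.9 to 52.3 in N275D). Bcl2l10 and Hrk were below the filter.

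Other targets of p53, which share this regulator with Bax, Bbc3 and Pmaip1, were mostly called. Of 16 p53 targets outside the 10 members, 12 were called (75%), 9 lower and 3 higher, beside 50.9% of all genes tested called and 26.1% called lower. Their median log2 difference was -0.20, and the list was not tested as a set. Eda2r (-0.83), Phlda3 (-0.74) and Aen (-0.54) fell, as did the cell cycle inhibitor Cdkn1a, from 12172 ± 567.7 to 8963 ± 232.5 normalized reads (-0.44, limma adjusted p = 1.23e-07), and Mdm2 (-0.13). Gadd45a rose from 64.3 ± 8.83 to 198.3 ± 19.5 (1.61, limma adjusted p = 2.45e-08). Trp53, the gene of p53, was 3316 ± 100.4 in WT and 3086 ± 117.3 in N275D (-0.10, limma adjusted p = 0.0459) with overlapping libraries. Among the members named above as p53 targets, Bax fell, Pmaip1 rose and Bbc3 was not called. The other members were not sorted by whether p53 acts on them.

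Of 14 transcription factors known to act on members, 6 were higher, 4 lower and 4 not called (median 0.05). The share called was 71.4%, beside 50.9% of all genes tested. The stress factors Ddit3 (0.71) and Atf4 (0.17, limma adjusted p = 0.000816) rose, as did Foxo1 (0.40). The NF-κB subunit gene Rel fell from 5202 ± 42.1 to 3950 ± 68.0 (-0.40), and Foxo3 fell from 1741 ± 64.0 to 1412 ± 56.4 (-0.30, limma adjusted p = 5.89e-05). Of 6 survival cytokine and receptor genes tested, 5 were called (83.3%, beside 50.9%), 3 higher and 2 lower (median 0.18). At 2-fold or more 2 of these were called, beside 3.59% of all genes tested. Il2 was measured at 10101, 10626 and 10355 normalized reads in WT and at 2104, 2222 and 2100 in N275D (-2.27, limma adjusted p = 3.32e-16). Il7r, the receptor chain through which IL-7 sustains Bcl2, was measured at 594.5, 622.4 and 558.9 in WT and at 1557, 1430 and 1518 in N275D (1.34, limma adjusted p = 1.49e-11). Neither overlapped between the genotypes, and Il7 and Il15 were below the filter.

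Downstream of the members, the 14 genes of the apoptosome, caspases and mitochondrial death factors split into 4 higher, 6 lower and 4 not called (71.4% called, beside 50.9% of all genes, median -0.11). Casp6 (0.60) and the initiator Casp9 (0.51) rose, and Aifm1 (-0.24), the gene of a flavoprotein of the mitochondrial intermembrane space, fell. Of 5 inhibitor of apoptosis genes, 4 fell (80%, beside 26.1% of all genes called lower), among them Birc5 (-0.23) and Birc3 (-0.21). When N275D replicate 2 was left out, 2 were called. In the death receptor pathway 2 of 12 genes rose and 3 fell (41.7% called, below the 50.9% of all genes). Fas was at -0.69, Tnfrsf10b at -0.61 and Mlkl at 0.41. Of 7 genes tested that control MCL-1 protein turnover, 2 rose and 3 fell (71.4% called, beside 50.9%), with Gsk3b at 0.28 and Fbxw7 at -0.25. Of 8 partners of the family in the outer mitochondrial membrane and the endoplasmic reticulum, 4 rose and 1 fell (62.5% called, beside 50.9%). Itpr2 was at 0.29 and Vdac2 at -0.12. The count of 5 partners called was 3 without WT replicate 2, N275D replicate 1 or N275D replicate 3. It was 2 without N275D replicate 2.

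**Figure D5:**
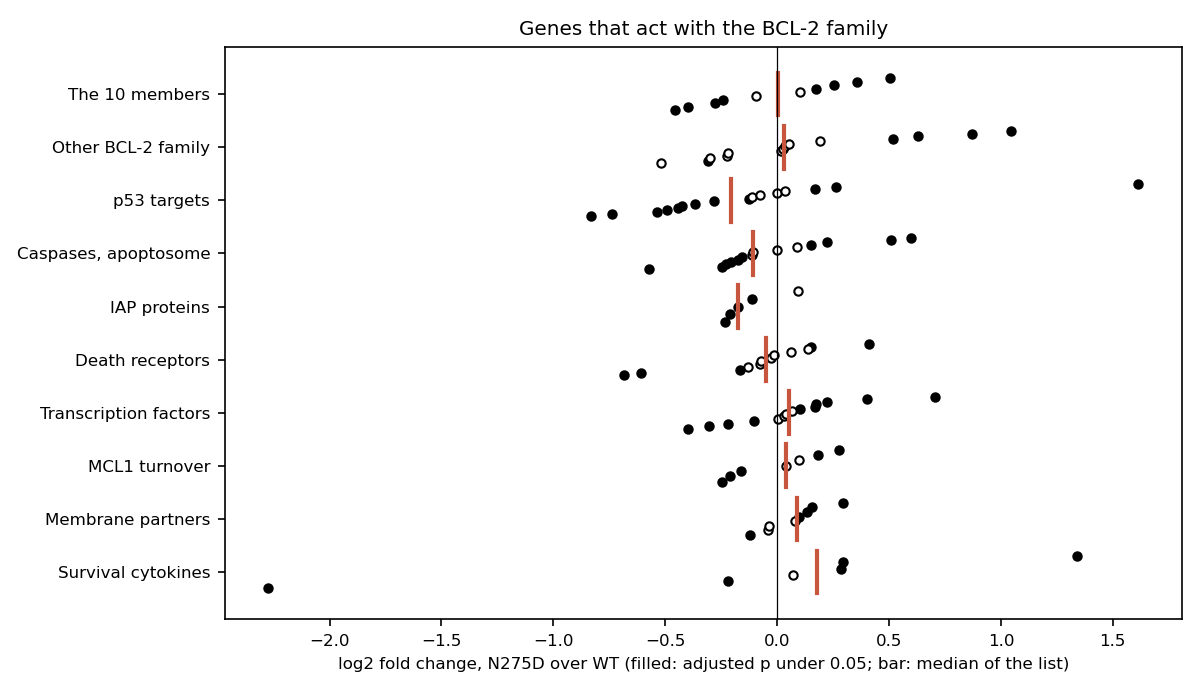
Log2 fold change of N275D over WT (horizontal axis) for each gene tested in the 10 members and in 9 lists of related genes. Filled points mark an adjusted p under 0.05, and a bar marks the median of each list. The members spread to both sides of 0, and Il2 at -2.27 and Gadd45a at 1.61 lie farthest out.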

How the data were processed

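Genotype and replicate number of the 6 libraries came from the labels. In the methods, reads were mapped to mm10 with STAR and assigned to genes with featureCounts, and the authors tested genotypes with DESeq2 (versions not given in the sources used here). The signal values that the authors deposited are reads per gene times a factor that is constant within a library, and 100% of them were whole multiples of it within 1e-06. The log2 fold changes, q-values and group averages in the same table are the authors' and were not used. Unused columns of single samples numbered 0.

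log2(normalized reads + 1) was fitted with limma (version 3.58.1, R 4.3.3) and a trended prior, without a block. The filter was a mean of 10 or more, which kept 11908 genes. The threshold was an adjusted p of 0.05. Fold changes on this scale understate those of low genes. The members, lists and pairs were chosen with earlier results of these data known. Values are given for up to 4 called genes of a list with the largest changes and for those with a direct role on a member. Some genes that this rule names are not reported here. Lengths and positions are from GENCODE M21 (GRCm38), matched for all 10 members.

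Alternatives were pseudocounts of 0.1 and 10, filters of a mean above 0 and of at least 100, TMM and quantile scaling, eBayes without a trend, a replicate block, each library left out, and tests of the recovered reads with edgeR (version 4.0.16) or DESeq2 (version 1.42.0). Counting error of the members was between 1.33% and 6.10% of their values. The chi-square of replicates over genes exceeded counting noise in every pair, which cannot show whether libraries came from separate mice or cultures. Each library was counted once.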

Additional observations from a re-analysis of the deposited data

How the results depend on the processing

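Of 160 recomputed fold changes of members (16 alternatives), 156 kept their direction and their side of the threshold, 2 lost the call, 2 gained it and 0 reversed, and 7 members held in all of them. Bid was lost with DESeq2 and without N275D replicate 1, Bbc3 was gained without WT replicate 3 and Bak1 without WT replicate 1; apart from these left-out libraries the causes were not tested. Members called numbered 7 to 9 with a library left out, all genes called 5158 to 6398, those at 2-fold 413 to 456 and list genes 49 to 62. The count at 2-fold was 427, and it was 259 with a pseudocount of 10, 162 with a mean of at least 100 and 703 with all genes above 0, which differ by construction in the genes tested or in the shrinkage of low values. With eBayes without a trend, 2 inhibitor of apoptosis genes and 3 membrane partners were called. By the longest transcript, chosen after seeing the data, 6 of 10 members kept their place in the WT order of levels: Bcl2a1b exchanged with Bcl2l1, and Pmaip1 with Bid. Libraries with the same replicate number did not deviate together (r = -0.05, 0.04 and -0.08), and the replicate block gave 8 members, 5727 genes at any fold, 428 at 2-fold and 60 list genes, with no member's call changed.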
